A study of Mus musculus with 8 samples.

Results

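The clustered protocadherins are cell surface adhesion proteins of the cadherin superfamily, encoded in the mouse by the alpha, beta and gamma gene clusters on chromosome 18. Their members were taken here by gene symbol, as the rows named *Pcdha*, *Pcdhac*, *Pcdhb*, *Pcdhga*, *Pcdhgb* or *Pcdhgc* followed by a number. This rule, which uses no measured value, found 56 of the 41325 gene symbols listed in each library, with 12 in the alpha, 22 in the beta and 22 in the gamma cluster. The values come from RNA-seq of the mouse line C3H10T1/2, whose cells are mesenchymal stem cells (MSCs). The cells carried a control shRNA (shControl, labelled as wild type in genotype) or an shRNA against the histone demethylase KDM4D (shKDM4D), the transcription factor NFIB (shNFIB) or the histone methyltransferase MLL1 (shMLL1). Day 0 cells were post-confluent and not yet induced, and day 5 cells had been induced with insulin, dexamethasone and isobutylmethylxanthine. All 4 lines were treated alike, and each line and day was sequenced as 1 library, 8 in all.

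In the alpha and gamma clusters each gene has its own promoter and its own large first exon, which is spliced to constant exons shared by the whole cluster. Genes of the beta cluster consist of a single large exon. In neurons, single cells choose a few promoters, CTCF and cohesin bring the chosen promoters to distant enhancers, and DNA methylation silences the others, so that neighbouring cells carry different combinations of proteins that bind only their own kind. The C-type members at the end of the alpha and gamma clusters are used in a more uniform manner and outside this choice.

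On GRCm38 the alpha cluster members lie on chromosome 18 from 36930184 to 37187661 (257 kb), the beta cluster from 37264938 to 37524479 (260 kb) and the gamma cluster from 37661793 to 37841873 (180 kb). All 56 genes are on the plus strand, and *Pcdhgb8* is annotated as a polymorphic pseudogene. *Pcdha11* is listed under a pair of suffixed symbols that the rule does not take, both at 0 in every library. RPKM, the unit of the deposited values, scales the reads of a gene to the length of its exons and to the mapped reads of the library, so that levels can be compared between genes. Whole reads were recovered from the RPKM values for all 448 member values. The libraries held 15800000 to 38200000 mapped reads, so 3 reads on a gene with 1 kb of exons correspond to an RPKM of 0.0785 in the deepest and 0.189 in the shallowest library. With 1 library per condition no p-value is given. The exact 95% intervals printed with log2 ratios cover counting error only, and PCR copies are counted as separate reads.

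The targeted genes and the cell identity were checked first. *Nfib* had an RPKM of 9.92 in shControl and 2.31 in shNFIB cells at day 0, and 17.02 and 3.38 at day 5. *Kmt2a*, the MLL1 gene, had 5.17 at day 0 and 5.27 at day 5 in shControl cells, and 2.00 and 1.63 in shMLL1 cells. *Kdm4d* had only 2 reads in shControl and 1 read in shKDM4D cells at day 0, and 13 and 4 reads at day 5, so its knockdown is poorly measured. Of 9 MSC or fibroblast markers, 8 had an RPKM over 1, with summed RPKM of 2172 to 2927, while *Nt5e* was near 0. The marker *Thy1* was at an RPKM of 11.1 to 25.01 in shControl and shMLL1 cells and of 0.0171 to 0.139 in shKDM4D and shNFIB cells. Of 9 neuron markers, 3 (*Tubb3*, *Map2* and *Gap43*) had an RPKM over 1, with a sum over the list of 6.26 to 15.3, and the defining genes *Rbfox3*, *Snap25* and *Syt1* were at or near 0. None of 7 glial markers reached an RPKM of 1, and endothelial, blood and epithelial markers had 1 of 4 each (*Tek*, *Cd68* and *Cdh1*), with *Pecam1*, *Ptprc* and *Epcam* at or near 0. The knockdown lines were made from isolated puromycin-resistant clones, so a difference between clones and an effect of the knockdown cannot be told apart. In these bulk samples, fewer cells with a transcript and less of it per cell cannot be told apart either.

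Uninduced and induced cells transcribed mostly the beta cluster, a few gamma genes and no alpha gene above the limit used here. A gene was called expressed when its RPKM was over 1 in at least 1 library, which held for 11 of the 56 members and for 11513 of all genes. The 11 members were 8 of the beta cluster (*Pcdhb5*, *Pcdhb9*, *Pcdhb12*, *Pcdhb14*, *Pcdhb15*, *Pcdhb16*, *Pcdhb17* and *Pcdhb20*) and 3 of the gamma cluster (*Pcdhga1*, *Pcdhgb2* and *Pcdhgc3*). At day 0, 5 members were over an RPKM of 1 for shControl, 4 for shKDM4D, 4 for shNFIB and 3 for shMLL1 cells, and at day 5 these numbers were 10, 9, 7 and 9. Just inside the limit was *Pcdhb5*, with a highest RPKM of 1.15, and just outside it was *Pcdhb21*, with 0.924. Of the 11, *Pcdhb5*, *Pcdhb9*, *Pcdhb12*, *Pcdhb20* and *Pcdhga1*, 5 in all, were over 1 only in day 5 libraries. A member that passed the limit only where it is high had to be lower elsewhere, so the counts of differing members below are a description of these 11 genes and not of the whole family.

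The alpha cluster had almost no assigned reads. Its 12 genes had 8 reads in all 8 libraries together, and 7 of them had none. *Pcdha5* had 3 of these reads, *Pcdha7* had 2, and *Pcdha1*, *Pcdha3* and the C-type gene *Pcdhac2* had 1 each. The other C-type gene, *Pcdhac1*, had 0 reads in every library. A count of 0 allows up to 3 reads, which for alpha genes is an RPKM of 0.0133 to 0.0364 over the whole exon length. This bound is higher if reads from the exons that alpha genes share were not assigned to any gene.

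**Figure D1:**
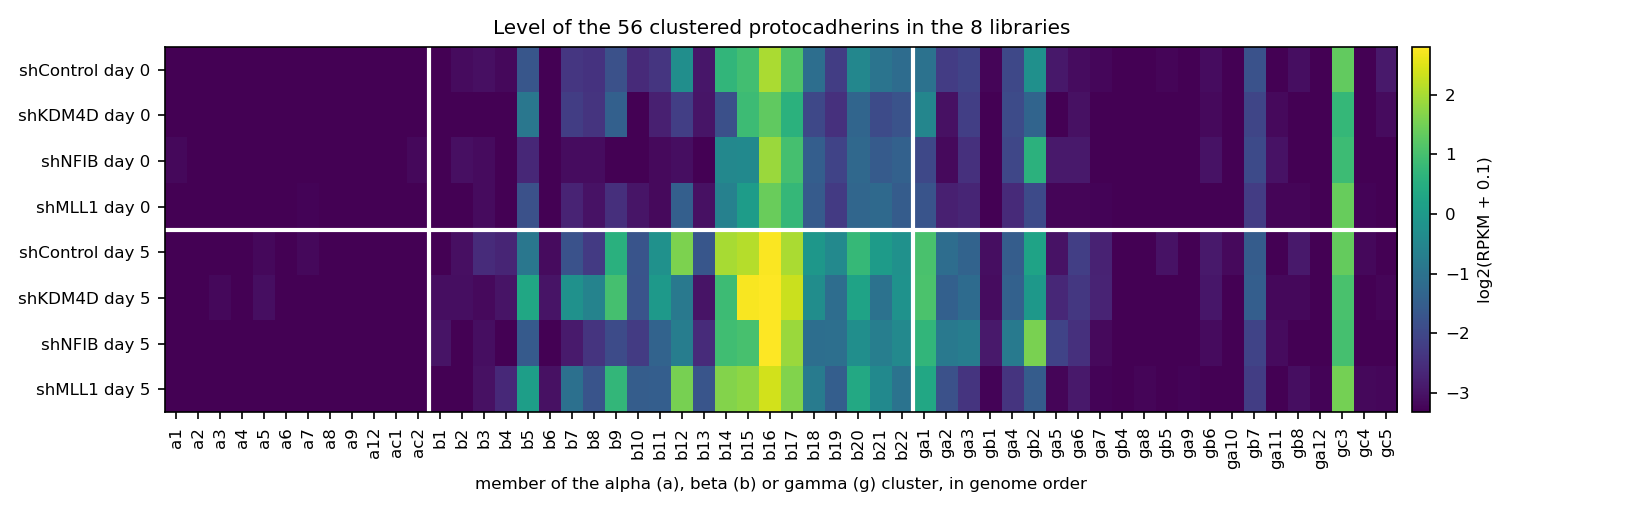
Heat map of log2(RPKM + 0.1) for the 56 members, placed along the x axis in genome order within the alpha, beta and gamma clusters, in the 8 libraries (rows, day 0 above day 5). The 12 alpha genes are dark throughout, the brightest beta genes are *Pcdhb14* to *Pcdhb17*, and *Pcdhgc3* stands at a similar level in every row.

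All 22 beta genes had at least 1 read and together they held 15819 of the 20773 reads of the family. Levels differed along the cluster. *Pcdhb1* to *Pcdhb4*, at the end next to the alpha cluster, had at most 9 reads in any library. *Pcdhb5* to *Pcdhb13* took 1.50% to 27.4% of the summed RPKM of the cluster, and the neighbours *Pcdhb14* to *Pcdhb17* took 59.8% to 83.0%. *Pcdhb6*, next to the expressed *Pcdhb5*, had 6 reads in total.

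*Pcdhb16* was the highest beta gene in every library and took 21.2% to 44.0% of the summed RPKM. Its RPKM at day 0 was 3.94 for shControl, 2.36 for shKDM4D, 3.56 for shNFIB and 2.52 for shMLL1 cells, and at day 5 it was 6.65, 6.85, 6.84 and 5.13. The next gene, *Pcdhb17*, had 2.06, 1.41, 1.87 and 1.60 at day 0 in the same order and 3.94, 4.82, 3.60 and 3.02 at day 5. For both genes, the lowest day 5 level of the 4 lines was above the highest day 0 level. The number of beta genes that would give the same spread if all were used equally (the inverse of the summed squared shares) was between 3.77 in shNFIB cells at day 0 and 8.44 in shMLL1 cells at day 5, and in each line it was larger at day 5.

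The gamma cluster had 4946 reads, and the C-type gene *Pcdhgc3* took the largest share of its summed RPKM in 6 libraries. *Pcdhgc3*, whose cytoplasmic part is known to bind Axin1 and to dampen Wnt signalling, had an RPKM of 2.42 for shControl, 1.57 for shKDM4D, 1.73 for shNFIB and 2.50 for shMLL1 cells at day 0 and of 2.44, 1.95, 1.89 and 2.76 at day 5. Its range of 1.57 to 2.76 was, in fold terms, the narrowest of the 11 expressed members. The neighbouring C-type genes *Pcdhgc4*, known for its role in the survival of neurons, and *Pcdhgc5* had at most 2 and 7 reads in a library. *Pcdhga1*, the first gene of the cluster, was the highest gamma gene in shKDM4D cells at day 5, and *Pcdhgb2* was the highest in shNFIB cells at day 5. *Pcdhga3* and *Pcdhga4* stayed between an RPKM of 0.0555 and 0.508.

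From *Pcdhga5* to *Pcdhga12*, only *Pcdhgb7* had at least 10 reads in every library, with an RPKM of 0.111 to 0.255. *Pcdhgb4* had no read in any library, and *Pcdhga8*, *Pcdhga9*, *Pcdhga10* and *Pcdhga12* had 1 each. The members of the gamma cluster share 27.8% to 66.8% of their exon bases (median 44.7%) with other protocadherin genes through the constant exons, and those of the alpha cluster share 48.6% to 54.9%. Reads from these exons cannot be assigned to 1 member, and how the mapping software treated them is not given in the sources used here. *Pcdhgb4* had no read although 38.3% of its exon bases are shared, so no shared read was assigned to it. In the beta cluster, apart from 455 bases annotated to both *Pcdhb21* and *Pcdhb22*, no exon is shared, and a median of 0.207% of the stretches of 100 bases of a gene (at most 7.73%) occur in another member. Levels of single gamma genes are therefore less certain than those of beta genes, and the summed RPKM of the gamma cluster can also depend on how these reads were counted.

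**Figure D2:**
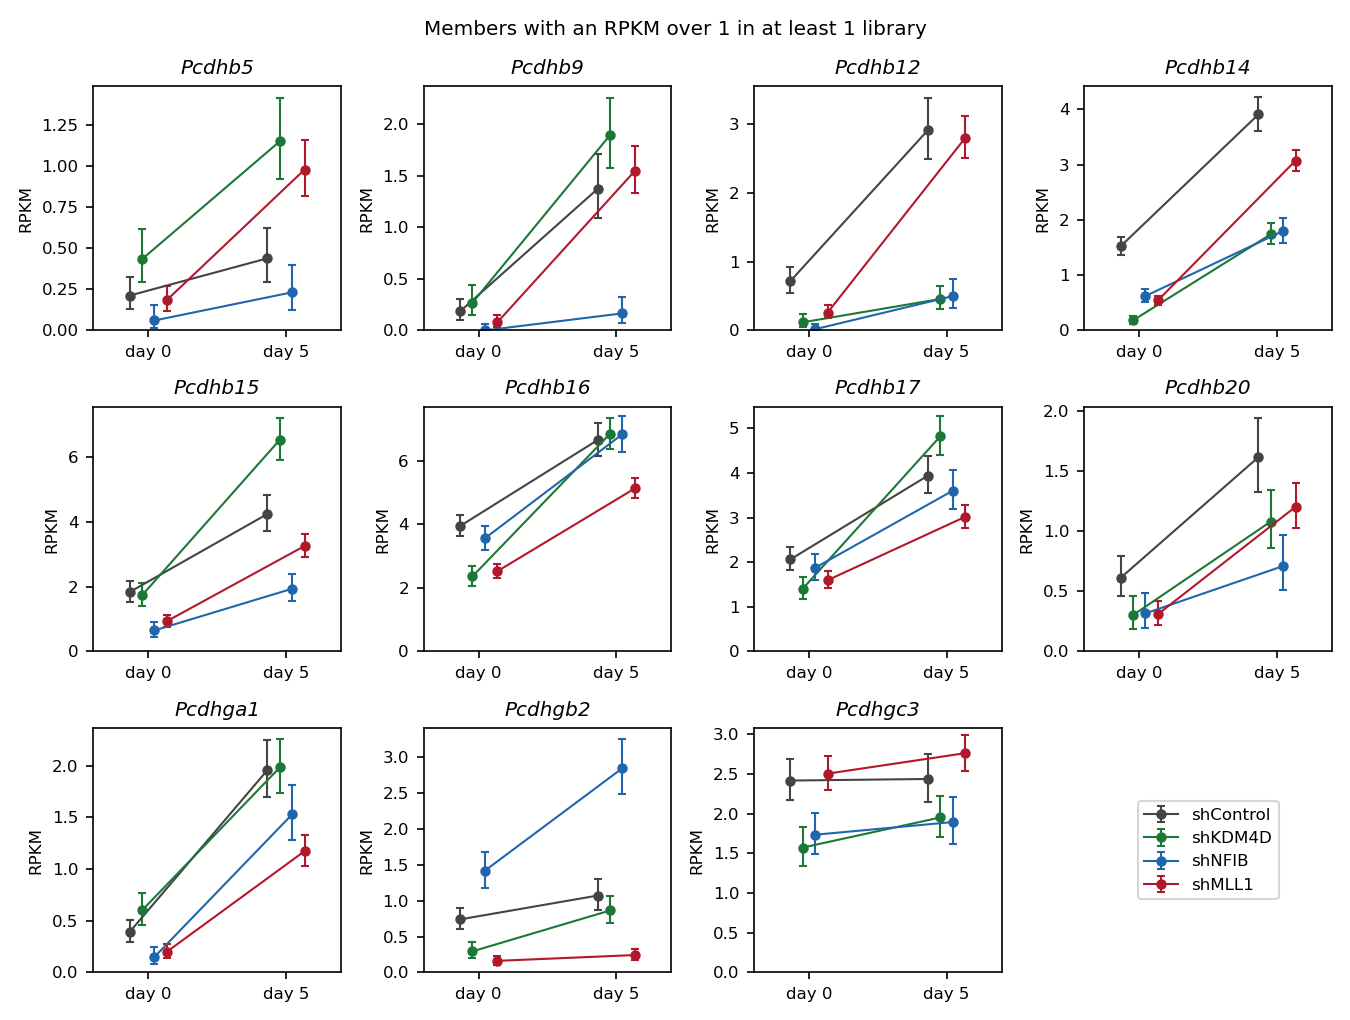
RPKM of the 11 expressed members at day 0 and day 5 in shControl (grey), shKDM4D (green), shNFIB (blue) and shMLL1 cells (red), with exact 95% counting intervals as bars and 1 library per point. The lines slope upward from day 0 to day 5 in every panel except that of *Pcdhgc3*, where they are close to flat.

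The 8 expressed beta genes, *Pcdhga1* and *Pcdhgb2* were higher at day 5 than at day 0 in all 4 lines, whereas *Pcdhgc3* was nearly level. For *Pcdhgb2* in shMLL1 cells the counting interval of the log2 ratio held 0. In shControl cells, 7 of the 11 expressed members were more than 2-fold higher at day 5, against 13.0% of all expressed genes. There were 10 such members for shKDM4D (12.8% of all expressed genes), 8 for shNFIB (12.6%) and 8 for shMLL1 cells (20.4%). These counts include the 5 members that passed the limit through day 5 alone, whose higher level at that day follows in part from the limit. In each line 0 members were more than 2-fold lower, against 8.56%, 8.44%, 4.96% and 6.89% of all expressed genes. *Pcdhb5*, *Pcdhb9*, *Pcdhb12*, *Pcdhb14*, *Pcdhb15*, *Pcdhb20* and *Pcdhga1*, 7 members in all, were past 2-fold in each of the 4 lines, against 6.93% of expressed genes. Among the 4700 genes whose highest RPKM was over 1 and no higher than that of *Pcdhb16*, the share past 2-fold upward was 16.5% for shControl, 16.6% for shKDM4D, 16.6% for shNFIB and 26.1% for shMLL1 cells, and downward it was 8.83%, 9.02%, 5.70% and 6.32%.

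The median log2 ratio of day 5 to day 0 over the 11 members was 1.21 for shControl, 1.78 for shKDM4D, 1.53 for shNFIB and 1.96 for shMLL1 cells. Over all expressed genes it was 0.03, 0.03, 0.10 and 0.17, so the shMLL1 ratios of single members include a shift of 0.17 seen in the median gene. Members that passed the limit through day 5 alone can raise the median over the 11, as they do the counts above. The median of shNFIB cells is the same with *Pcdhb9*, which had no read at day 0, at its bound.

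Large differences with time were found in the middle of the beta cluster. *Pcdhb9* had 15, 16, 0 and 9 reads at day 0 in shControl, shKDM4D, shNFIB and shMLL1 cells and 81, 125, 8 and 180 at day 5. Its RPKM was 0.184, 0.268, 0 and 0.0771 at day 0 and 1.37, 1.89, 0.165 and 1.55 at day 5. The log2 ratio of day 5 to day 0 was 2.90 (95% interval 2.09 to 3.80) in shControl, 2.82 (2.06 to 3.67) for shKDM4D and 4.32 (3.37 to 5.48) for shMLL1 cells. In shNFIB cells *Pcdhb9* was 3.14-fold higher at day 5 when its day 0 value was set to a floor of 3 reads. This fold leaves out the counting error of the 8 reads at day 5. Its day 5 level in shNFIB cells was still below every other day 5 library.

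*Pcdhb12* had an RPKM of 0.718, 0.118, 0.0177 and 0.259 at day 0 in the same order of lines and of 2.92, 0.457, 0.499 and 2.80 at day 5. The log2 ratio of day 5 to day 0 was 2.02 (1.59 to 2.48) in shControl, 1.95 (0.74 to 3.39) in shKDM4D, 4.82 (2.21 to 10.18, from 1 read at day 0) in shNFIB and 3.44 (2.89 to 4.03) in shMLL1 cells. At day 5 shControl and shMLL1 cells were thus at a like level, and shKDM4D and shNFIB cells were below the shControl level of day 0. *Pcdhb5*, the gene of lowest level among the expressed members, had 0.212, 0.434, 0.0606 and 0.185 at day 0 and 0.439, 1.15, 0.232 and 0.979 at day 5.

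*Pcdhb14*, the first gene of the high stretch, had an RPKM of 1.52, 0.182, 0.622 and 0.542 at day 0 and of 3.91, 1.74, 1.80 and 3.07 at day 5. Its log2 ratio of day 5 to day 0 was 1.36 (1.17 to 1.55) for shControl, 3.25 (2.72 to 3.83) for shKDM4D, 1.53 (1.19 to 1.88) for shNFIB and 2.50 (2.27 to 2.74) for shMLL1 cells. The shKDM4D library, lowest of the 4 at day 0, had the largest ratio. *Pcdhb15* had 1.84, 1.74, 0.650 and 0.935 at day 0 and 4.25, 6.54, 1.94 and 3.26 at day 5, with log2 ratios of 1.21 to 1.91. *Pcdhb20* had 0.612, 0.302, 0.316 and 0.309 at day 0 and 1.61, 1.08, 0.709 and 1.20 at day 5, with log2 ratios of 1.17 to 1.96. *Pcdhb16* and *Pcdhb17* had the smallest ratios of the expressed beta genes except in shKDM4D cells, where *Pcdhb5* was lower with 1.41. Their ratios were 0.75 and 0.93 for shControl, 1.54 and 1.78 for shKDM4D, 0.94 and 0.94 for shNFIB and 1.03 and 0.92 for shMLL1 cells.

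In the gamma cluster, *Pcdhga1* had an RPKM of 0.392, 0.601, 0.150 and 0.200 at day 0 and of 1.96, 1.98, 1.53 and 1.17 at day 5. Its log2 ratio of day 5 to day 0 was 2.32 (1.89 to 2.77) for shControl, 1.72 (1.31 to 2.15) for shKDM4D, 3.35 (2.58 to 4.23) for shNFIB and 2.55 (2.07 to 3.07) for shMLL1 cells. *Pcdhgb2* had log2 ratios of 0.54 (0.12 to 0.95), 1.55 (0.93 to 2.22), 1.01 (0.69 to 1.33) and 0.59 (-0.11 to 1.31). For *Pcdhgc3* the log2 ratios were 0.01 (-0.22 to 0.25), 0.31 (0.02 to 0.61), 0.13 (-0.19 to 0.44) and 0.14 (-0.03 to 0.31). *Pcdhgc3* thus differed by no more than 0.61 in either direction within these intervals, while *Pcdhga1* differed by at least 1.31.

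Summed over each cluster, the deposited levels were also higher at day 5. The summed RPKM of the beta cluster was 12.8, 7.67, 8.08 and 7.49 at day 0 in shControl, shKDM4D, shNFIB and shMLL1 cells and 29.9, 29.3, 18.3 and 24.2 at day 5. The log2 ratio of the sums was 1.23, 1.93, 1.18 and 1.69, which is 2.34-, 3.81-, 2.27- and 3.23-fold. The summed RPKM of the gamma cluster was 4.27, 2.97, 3.81 and 3.17 at day 0 and 6.92, 6.22, 8.12 and 4.75 at day 5, with log2 ratios of 0.70, 1.07, 1.09 and 0.58. Without *Pcdhgc3* these ratios were 1.27, 1.61, 1.58 and 1.57. In shMLL1 cells the ratio of the whole gamma sum depended on the scaling, and it was -0.03 after quantile normalization.

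**Figure D3:**
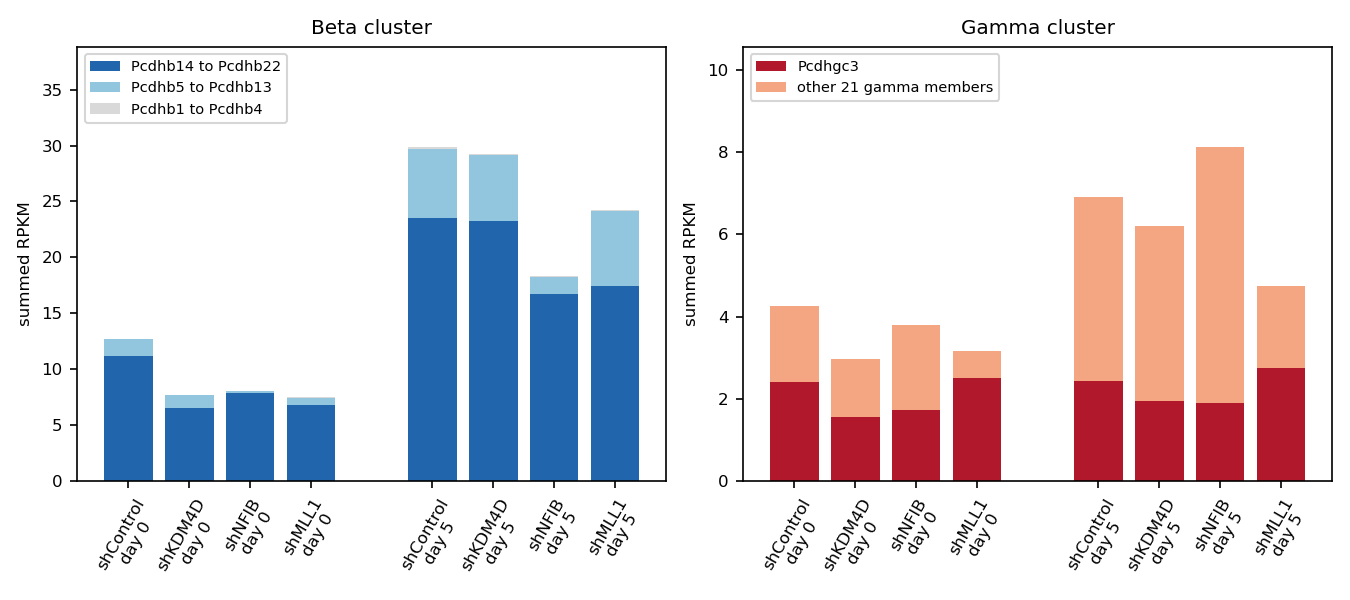
Summed RPKM of the beta cluster (left, split into *Pcdhb1* to *Pcdhb4*, *Pcdhb5* to *Pcdhb13* and *Pcdhb14* to *Pcdhb22*) and of the gamma cluster (right, split into *Pcdhgc3* and the other 21 genes) in each library, as stacked bars from 0. The beta sum is higher at day 5 in each line and lowest at day 5 in shNFIB cells, and the *Pcdhgc3* part of the gamma bars stays between 1.57 and 2.76.

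A limit on reads in place of the RPKM limit brought in more members. It was chosen after the data were seen and keeps genes with at least 10 reads in 1 of both libraries compared. In shControl cells 17 of 24 members so kept were more than 2-fold higher at day 5, against 16.5% of all genes kept. It was 21 of 24 in shKDM4D (15.9%), 15 of 20 in shNFIB (14.9%) and 16 of 24 in shMLL1 cells (25.8%), and no member was more than 2-fold lower, against 9.43%, 8.82%, 5.65% and 7.77%. Among the members added, *Pcdhb11* had 11, 4, 1 and 2 reads at day 0 and 64, 83, 20 and 43 at day 5.

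The knockdown lines were then compared with shControl cells at the same day. All 3 comparisons of a day use the same shControl library, so they are not independent of each other and a low or high value in it enters all 3. At day 0, the expressed members were mostly lower in the knockdown lines. In shKDM4D cells 4 members were more than 2-fold lower (4.26% of all expressed genes) and 1 was higher (1.98%). In shNFIB cells 6 were lower (6.05%) and 0 higher (2.95%), and in shMLL1 cells 4 were lower (7.43%) and 0 higher (1.67%). *Pcdhb12* and *Pcdhb14*, 2 members, were more than 2-fold lower in all 3 lines at day 0, against 1.31% of expressed genes, and at day 5 there was 0 against 1.22%. No member was higher in all 3 lines at either day, against 0.295% of expressed genes at day 0 and 0.565% at day 5. Among the 4700 genes of like level, the shares lower and higher at day 0 were 6.96% and 3.34% for shKDM4D, 8.87% and 5.04% for shNFIB and 9.79% and 2.98% for shMLL1 cells. At day 5 they were 7.13% and 3.49%, 7.70% and 7.74%, and 5.70% and 6.96%.

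The median log2 ratio to shControl cells over the 11 members at day 0 was -0.62 for shKDM4D, -1.29 for shNFIB and -0.97 for shMLL1 cells, beside -0.003, 0.03 and -0.07 over all expressed genes. At day 5 it was 0.02, -0.92 and -0.38, beside 0.01, 0.09 and 0.07. The beta sum had log2 ratios of -0.73, -0.66 and -0.77 at day 0 and of -0.03, -0.71 and -0.30 at day 5. The beta sum of shNFIB cells was thus lower by a like amount at both days and that of shKDM4D cells was near the shControl level at day 5, although relative to *Gapdh* the shNFIB ratio at day 0 was -0.02. *Gapdh* itself had a log2 ratio of -0.64 in that comparison.

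**Figure D4:**
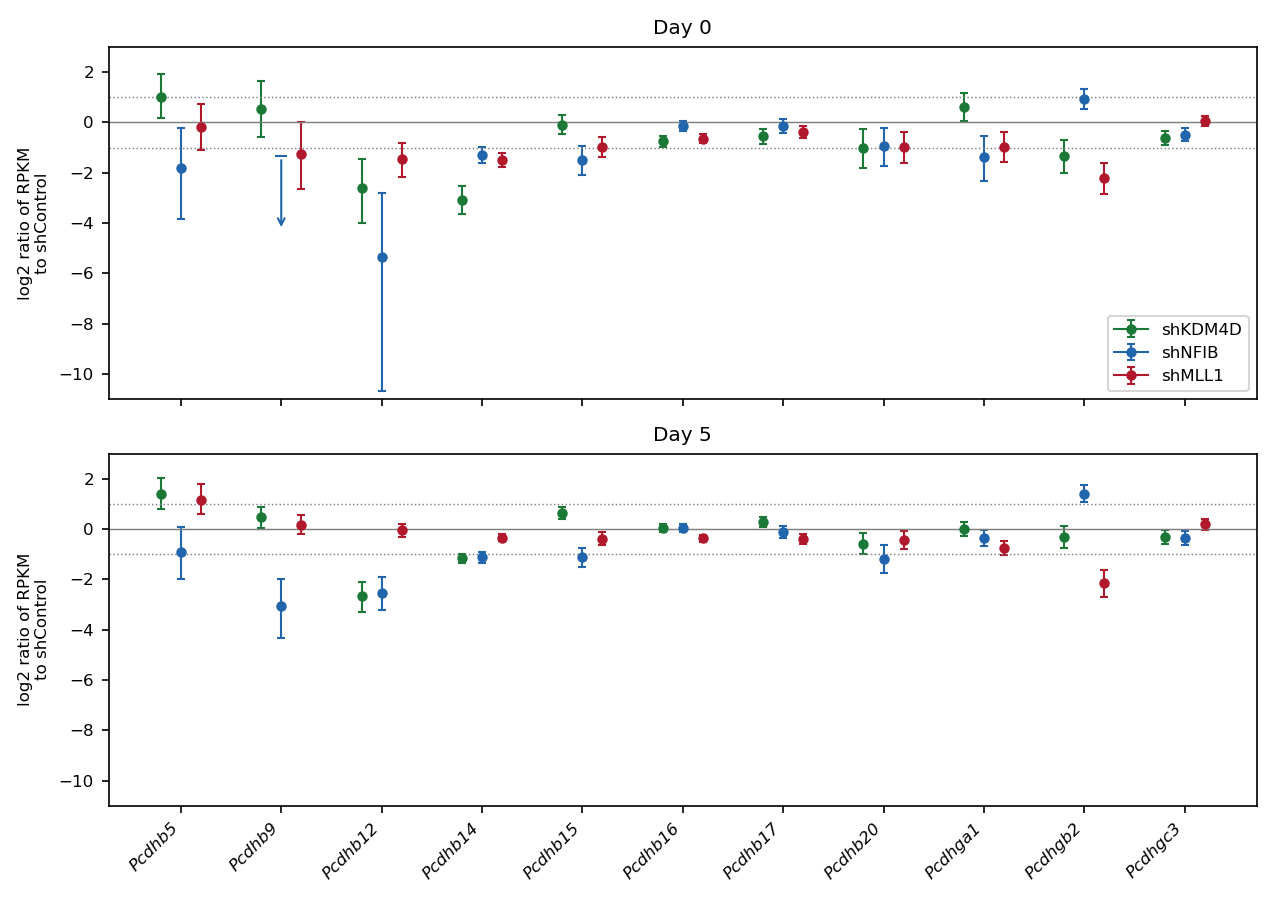
Log2 ratio of RPKM to shControl cells for the 11 expressed members at day 0 (top) and day 5 (bottom) in shKDM4D (green), shNFIB (blue) and shMLL1 cells (red), with exact 95% counting intervals. Dotted lines mark 2-fold, and the arrow marks *Pcdhb9* in shNFIB cells at day 0, which had no read. *Pcdhb12* and *Pcdhb14* lie below the lower dotted line in all 3 lines at day 0, and *Pcdhgb2* is above 0 in shNFIB and below 0 in shMLL1 cells at both days.

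In shKDM4D cells the members lower than in shControl cells at day 0 were *Pcdhb12*, *Pcdhb14*, *Pcdhb20* and *Pcdhgb2*, and *Pcdhb12* and *Pcdhb14* were also past 2-fold at day 5 (2 lower, 4.57% of expressed genes). For *Pcdhb14* the log2 ratio was -3.06 (-3.64 to -2.53) at day 0, which is 8.35-fold lower, and -1.17 (-1.36 to -0.97) at day 5. *Pcdhb12* stood at -2.60 (-3.98 to -1.47) before induction and at -2.67 (-3.28 to -2.11) on day 5. The low level of *Pcdhb12* was thus present at both days, while that of *Pcdhb14* was smaller at day 5. *Pcdhb12* was over an RPKM of 1 only in shControl and shMLL1 cells at day 5. Its call as lower at day 5 therefore follows in part from the limit. *Pcdhb5* was the 1 member past 2-fold in the other direction at each day (1.88% at day 5). Its log2 ratios were 1.03 (0.17 to 1.93) and 1.39 (0.78 to 2.04). However, *Pcdhb5* was over an RPKM of 1 only in shKDM4D cells at day 5 (1.15). It passed the limit only through the line where it was called higher, so this call follows in part from the limit. With 0.1 added to each RPKM, the ratio of *Pcdhb5* at day 0 was no longer past 2-fold. *Pcdhb15*, next to *Pcdhb14*, had a ratio of -0.08 (-0.47 to 0.31) at day 0 and 0.62 (0.38 to 0.86) at day 5.

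Under the limit on reads, 8 of 20 members were lower (5.44% of genes kept) and 1 was higher (2.56%) in shKDM4D cells at day 0, and 4 of 25 were lower (6.60%) and 3 were higher (3.01%) at day 5. The higher ones at day 5 were *Pcdhb5*, *Pcdhb7* and *Pcdhb8*. *Pcdhb7* had 13 reads in shControl and 57 in shKDM4D cells, and *Pcdhb8* had 7 and 43.

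In shNFIB cells the stretch from *Pcdhb5* to *Pcdhb13* was nearly silent at day 0. The bounds of this stretch were chosen after the values were seen. Its 9 genes had 8 reads in shNFIB cells at day 0, against 129 in shControl, 73 in shKDM4D and 82 in shMLL1 cells, and 81 at day 5 against 393, 442 and 816. The summed RPKM was 0.121 in shNFIB and 1.49 in shControl cells at day 0 (log2 ratio -3.62), and 1.49 and 6.19 at day 5 (-2.06). *Pcdhb14* to *Pcdhb22* differed less, with log2 ratios of the sum of -0.50 at day 0 and -0.49 at day 5.

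Among the single genes of shNFIB cells, *Pcdhb12* had 1 read at day 0, a log2 ratio to shControl of -5.34 (-10.67 to -2.81), and -2.55 (-3.23 to -1.92) at day 5. *Pcdhb9* was 3.50-fold lower at day 0 when its shNFIB value was set to a floor of 3 reads. This fold leaves out the counting error of the shControl reads. The log2 ratio of *Pcdhb9* at day 5 was -3.05 (-4.31 to -2.01). *Pcdhb5* was at -1.81 (-3.82 to -0.23) and at -0.92 (-1.98 to 0.06). The genes next to this stretch were lower as well, with -1.29 (-1.63 to -0.97) and -1.12 (-1.34 to -0.91) for *Pcdhb14* and -1.50 (-2.08 to -0.95) and -1.13 (-1.51 to -0.77) for *Pcdhb15* at the respective days. Beyond them, *Pcdhb16* was at -0.15 (-0.35 to 0.05) and 0.04 (-0.12 to 0.20), and *Pcdhb17* at -0.14 (-0.43 to 0.15) and -0.13 (-0.36 to 0.10), all within counting error of 0. *Pcdhb20*, farther along, was at -0.95 (-1.75 to -0.21) and -1.19 (-1.74 to -0.65).

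At day 5, 5 members (*Pcdhb9*, *Pcdhb12*, *Pcdhb14*, *Pcdhb15* and *Pcdhb20*) were more than 2-fold lower in shNFIB cells (5.67% of expressed genes) and 1, *Pcdhgb2*, was higher (5.54%). Of the lower ones, *Pcdhb9*, *Pcdhb12* and *Pcdhb20* were over an RPKM of 1 only in day 5 libraries of other lines, shControl among them. Their calls as lower at day 5 therefore follow in part from the limit. *Pcdhgb2* had an RPKM of 1.42 in shNFIB cells at day 0 against 0.738 in shControl, 0.294 in shKDM4D and 0.161 in shMLL1 cells, and of 2.84 at day 5 against 1.07, 0.862 and 0.242. Set against shControl, the log2 ratio at day 0 was 0.94 (0.55 to 1.34), and at day 5 it was 1.41 (1.06 to 1.76). *Pcdhga1*, of the same cluster, was at -1.39 (-2.32 to -0.55) and -0.36 (-0.68 to -0.03), so the gamma genes did not differ in 1 direction. With the limit on reads, 8 of 20 members were lower (7.38% of genes kept) and 0 higher (4.28%) at day 0, and 9 of 25 were lower (8.04%) and 2 higher (7.11%) at day 5.

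In shMLL1 cells the lower members at day 0 were *Pcdhb9*, *Pcdhb12*, *Pcdhb14* and *Pcdhgb2*. At day 5, *Pcdhgb2* was the 1 member more than 2-fold lower (4.02% of expressed genes) and *Pcdhb5* the 1 higher (5.25%), with a log2 ratio of 1.16 (0.58 to 1.78). *Pcdhb12* had a ratio of -1.47 (-2.16 to -0.81) before induction and of -0.06 (-0.33 to 0.22) on day 5, and *Pcdhb14* one of -1.49 (-1.76 to -1.23) and -0.35 (-0.49 to -0.20). The interval of *Pcdhb9* at day 0, from -2.63 to 0.03, held 0. *Pcdhgb2* was low at both days, with -2.20 (-2.84 to -1.59), or 4.59-fold, and -2.15 (-2.69 to -1.63), or 4.43-fold.

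*Pcdhga1* in shMLL1 cells was at -0.97 (-1.59 to -0.36) at day 0 and -0.74 (-1.01 to -0.46) at day 5. Without *Pcdhgc3* the summed gamma RPKM was 0.671 in shMLL1 against 1.85 in shControl cells at day 0 (log2 ratio -1.47) and of 1.99 and 4.48 at day 5 (-1.17). *Pcdhgc3* was at 0.05 (-0.15 to 0.25) and 0.18 (-0.03 to 0.40), within counting error of the shControl level. The C-type gene therefore took 78.9% of the gamma sum in shMLL1 cells at day 0, against 56.6% in shControl cells. In the other knockdown lines *Pcdhgc3* was slightly lower than in shControl cells, with -0.62 (-0.89 to -0.35) and -0.32 (-0.58 to -0.06) in shKDM4D and -0.48 (-0.75 to -0.21) and -0.36 (-0.65 to -0.08) in shNFIB cells. Under the limit on reads, 8 of 20 members were lower (8.59% of genes kept) and 0 higher (3.62%) in shMLL1 cells at day 0, and 7 of 25 were lower (5.64%) and 1 was higher (8.65%) at day 5.

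Across the 22 beta genes, Pearson's r of log2(RPKM + 0.1) was 0.878 to 0.946 between both days of the same line (4 pairs, median 0.929) and 0.856 to 0.978 between different lines at the same day (12 pairs, median 0.902). Between libraries that differed in both line and day it was 0.729 to 0.971 (12 pairs, median 0.866). Across the 22 gamma genes the values for these 3 kinds of pair were 0.864 to 0.944 (median 0.937), 0.856 to 0.993 (median 0.947) and 0.768 to 0.959 (median 0.864). These values describe genes within libraries that share gene lengths and many silent members, and genes are not independent replicates.

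The adipocyte markers, another group that differs with day and line, had a summed RPKM of 4.09 to 10.9 at day 0 and of 777 for shControl, 38.6 for shKDM4D, 12.0 for shNFIB and 12.3 for shMLL1 cells at day 5. The beta sum at day 5 was, in the same order, 29.9, 29.3, 18.3 and 24.2, so its level in shKDM4D cells was near that of shControl cells where the markers were far lower. The part of the adipocyte content in the levels of the members was not tested.

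Neighbouring genes outside the family were compared as well. Of 15 protein coding genes between the clusters or within 200 kb of them, 11 were expressed. *Tmco6* was more than 2-fold lower in shKDM4D cells at day 0 (4.26% of all expressed genes). *Taf7*, a subunit of the general transcription factor TFIID, lies between the beta and gamma clusters. It was more than 2-fold higher at day 5 than at day 0 in shKDM4D (12.8%) and shMLL1 cells (20.4%). *Tmco6* was also higher at day 5 in shMLL1 cells. No other neighbour was past 2-fold in any of the 10 comparisons. In shControl cells the log2 ratios of the neighbours from day 0 to day 5 lay between -0.82 and 0.83. There, 13.0% of all expressed genes were higher and 8.56% lower. With 11 genes, such low counts do not set the neighbours apart from expressed genes as a whole.

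Of 12 protocadherins that lie outside the clusters, 5 were expressed. From day 0 to day 5 in shControl cells, *Pcdh1* was more than 2-fold higher (13.0% of all expressed genes). In the same comparison *Pcdh7*, *Pcdh9* and *Pcdh19* were more than 2-fold lower (8.56%). *Pcdh19* had an RPKM of 12.0, 7.61, 12.0 and 11.1 at day 0 in shControl, shKDM4D, shNFIB and shMLL1 cells and of 3.70, 3.09, 5.13 and 5.98 at day 5. *Pcdh7* had 13.0, 11.5, 15.2 and 8.10 at day 0 and 5.01, 6.13, 8.28 and 2.14 at day 5. Their direction was opposite to that of the clustered beta genes. *Pcdh1* had 0.333, 0.111, 0.158 and 0.241 at day 0 and 0.941, 0.489, 0.488 and 2.06 at day 5. It was past 2-fold upward in each line, against 6.93% of all expressed genes. *Pcdh18* was also higher at day 5 in each line, with log2 ratios of 0.54, 0.84, 0.38 and 0.55. For *Pcdh9* the log2 ratios were -1.13, -1.15, -0.83 and -0.02, so it was level in shMLL1 cells.

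Of 11 genes for CTCF, cohesin and its loaders or releasers, all were expressed and none was past 2-fold in any knockdown comparison. In these comparisons 1.67% to 7.43% of all expressed genes were past 2-fold in a given direction. With 11 genes, a count of 0 does not set the list apart from expressed genes as a whole. The median log2 ratio of the 11 genes, day 5 to day 0, was -0.43 for shControl, -0.41 for shKDM4D, -0.48 for shNFIB and -0.65 for shMLL1 cells. Only the cohesin subunit *Rad21* in shNFIB cells passed 2-fold with time, downward (4.96% of all expressed genes). Of 13 DNA methylation and silencing factors, 12 were expressed. In shControl cells 3 were more than 2-fold lower at day 5 (8.56% of all expressed genes) and 0 were higher (13.0%). The lower ones were the maintenance methyltransferase *Dnmt1*, its partner *Uhrf1* and the remodeller *Hells*. *Dnmt3a* was higher at day 5 in all 4 lines, with log2 ratios of 0.74, 1.01, 0.27 and 0.06, past 2-fold in shKDM4D cells. *Dnmt1* had an RPKM of 35.8, 36.6, 35.8 and 43.3 at day 0 and of 12.7, 15.9, 17.8 and 18.5 at day 5. *Smchd1*, which represses clustered protocadherins in other tissues, had 7.48, 7.71, 10.3 and 10.4 at day 0 and 4.73, 5.21, 5.34 and 4.92 at day 5, past 2-fold in shMLL1 cells.

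Of these silencing factors, none was past 2-fold in a knockdown line at day 0, against 1.67% to 7.43% of all expressed genes per direction. With 12 genes expressed, this count does not set them apart from expressed genes as a whole. At day 5 *Hells* was higher than in shControl cells in shNFIB (5.54% of all expressed genes) and shMLL1 cells (5.25%). *Uhrf1* was higher in shMLL1 cells. Of 14 binding partners and cleavage enzymes of protocadherins, all were expressed in at least 1 library. The kinase *Ptk2b*, which binds their cytoplasmic part, had an RPKM of 0.624, 0.0761, 1.07 and 1.18 at day 0 and of 0.552, 0.0813, 0.503 and 0.447 at day 5, with the lowest levels in shKDM4D cells. The receptor kinase *Ret* had 0.594, 0.197, 1.04 and 0.0348 at day 0 and 0.0918, 0.137, 0.495 and 0.00776 at day 5, lowest in shMLL1 cells. *Psen2*, a subunit of the gamma-secretase that cleaves protocadherins, was more than 2-fold higher at day 5 in shControl and shMLL1 cells. At day 0 it was more than 2-fold lower in shMLL1 than in shControl cells (an RPKM of 0.502 against 1.53). Its day 5 level in shMLL1 cells (1.94) was the lowest of the lines.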

How the data were processed

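RNA was sequenced from C3H10T1/2 MSCs with a stranded library kit. The authors mapped the reads to GRCm38 (mm10) with CLC Genomics Workbench 11.0.1 and deposited RPKM values per gene symbol, 1 file per library. The strand setting and the treatment of reads in exons shared by several genes are not given in the sources used here, so levels of overlapping genes and of members with shared exons are uncertain. The 8 libraries were grouped by their labels, 1 per line and day.

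RPKM values were used as deposited, without a pseudocount. Whole reads were recovered from them with the exon lengths of GENCODE M21 (96.2% to 96.6% of values between 1 and 1000 reads within 0.02 of a whole number). Fold changes were ratios of RPKM. A gene was called past 2-fold only if its RPKM was over 1 in at least 1 library. Log2 ratios carry exact 95% counting intervals (Clopper-Pearson, given the summed reads). These were tested only on simulated Poisson counts, which hold no PCR copies and no variation between libraries or clones. The intervals of levels are exact Poisson intervals. With 1 library per condition no test between conditions was run. Sharing of stretches of 100 bases was computed from the annotated transcripts.

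Members named with values were, in each cluster, the 5 of highest mean RPKM, every C-type gene, and in each comparison the 3 largest ratios in each direction among expressed members with at least 10 reads, 21 members in all. Other members, such as *Pcdhb6*, *Pcdhb7*, *Pcdhb8*, *Pcdhb11*, *Pcdhb21*, *Pcdhgb4* and *Pcdhgb7*, were named after their values were seen. The members, gene lists and tests were chosen with earlier results of these data known. Alternatives were other RPKM limits, no limit, a limit on reads, 0.1 added to each RPKM, median-of-ratios scaling, quantile normalization as in the study's methods, and ratios to *Gapdh*. Python 3.11.15, numpy 2.4.6, pandas 2.3.3, scipy 1.17.1 and matplotlib 3.10.9 were used.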

Additional observations from a re-analysis of the deposited data

How the results depend on the processing

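The number of expressed members was 19 with an RPKM limit of 0.5 and 7 with a limit of 2, in place of 11. The numbers past 2-fold depended most on the limit for low values. With no limit, the members higher and lower than in shControl cells were 2 and 18 in shKDM4D, 4 and 18 in shNFIB and 3 and 19 in shMLL1 cells at day 0, and 8 and 11, 4 and 21, and 5 and 17 at day 5. From day 0 to day 5 they were 29 and 1 in shControl, 33 and 1 in shKDM4D, 24 and 3 in shNFIB and 26 and 2 in shMLL1 cells, many of them with a few reads. The limit of 10 reads, added after the data were seen, gave 8 lower members in shKDM4D and 8 in shMLL1 cells at day 0, 3 higher and 4 lower in shKDM4D, 2 higher and 9 lower in shNFIB and 7 lower in shMLL1 cells at day 5, and 17, 21, 15 and 16 members higher at day 5 than at day 0. With 0.1 added to each RPKM, 0 members were higher in shKDM4D cells at day 0, and the other 19 counts stayed within 1.5 times. Median-of-ratios scaling, quantile normalization and the added demand that the counting interval leave out 0 kept all 20 counts within 1.5 times.

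The beta sum relative to *Gapdh* had log2 ratios to shControl cells of -1.13, -0.018 and -0.98 at day 0 in shKDM4D, shNFIB and shMLL1 cells and of -0.66 in shMLL1 cells at day 5, and of day 5 to day 0 of 2.40, 0.61 and 1.57 in these 3 lines. After quantile normalization it was at -0.50 and -0.43 in shMLL1 cells at day 0 and day 5, and the day 5 to day 0 ratios were 1.02, 1.65, 0.86 and 1.09 in shControl, shKDM4D, shNFIB and shMLL1 cells. The gamma sum relative to *Gapdh* was at -0.92, 0.48 (-0.16 as deposited) and -0.64 at day 0 in the 3 knockdown lines and at -0.90 in shMLL1 cells at day 5, and its day 5 to day 0 ratio was 1.54 in shKDM4D and 0.53 in shNFIB cells. After quantile normalization it was at -0.26 in shMLL1 cells at day 0, and the day 5 to day 0 ratios were 0.34, 0.66, 0.67 and -0.030 (0.58 as deposited in shMLL1 cells). Median-of-ratios scaling moved only the shMLL1 day 5 to day 0 ratios, to 1.53 for the beta and 0.42 for the gamma sum. The shifts relative to *Gapdh* follow its own log2 ratios, which ran from -0.64 to 0.56. Of 108 ratios of named members, 4 moved beyond their counting interval with 0.1 added, 1 with median-of-ratios scaling, 17 with quantile normalization and 30 relative to *Gapdh*.

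No paired analysis was possible because each condition has 1 library and the labels carry no replicate numbers, and for the same reason no replicate was left out. Depth limits the 24 members with fewer than 10 reads over all libraries, too few to show a difference between libraries.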
